A study of Arabidopsis thaliana with 6 samples.

Results

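Transcript levels in rosettes kept for 4 hours at low CO2 in light were set against both other treatments of the study at once. For each of 22746 probe sets, the mean of the 2 low CO2 light arrays on the log2(intensity + 7.3) scale was compared with the average of the normal CO2 light mean and the low CO2 dark mean. The genes described are those in which both low CO2 light arrays lay above, or below, all 4 other arrays. This held for 4163 probe sets, 2064 of them above (9.07% of those tested) and 2099 below (9.23%).

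The plant on all 6 arrays was Arabidopsis thaliana carrying the pgm mutation in Col-0, harvested as full rosettes at 5 to 6 weeks. The groups were low CO2 in light, normal CO2 in light and low CO2 in prolonged darkness, each lasting 4 hours, with 2 biological replicates named A and B. Every group, including both that low CO2 light was compared with, therefore carried the pgm mutation, and wild-type plants were not analysed here. Per the labels' protocols 15 rosettes were ground together for RNA, so each array is a pool of plants. No source used here states the CO2 concentrations.

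The pgm mutant lacks the plastidic phosphoglucomutase that makes the precursor of starch, so its leaves hold almost no starch to draw on. In light at normal CO2 the chloroplast turns light energy into ATP and reducing power and spends them on fixing carbon into sugars. Light at low CO2 keeps the photoreceptors and the photosynthetic electron transport chain at work while little carbon can be fixed, and darkness stops both.

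Low CO2 light differed from the average of the other treatments in 428 probe sets (1.88%) by limma at an adjusted p under 0.05. Of these, 275 were higher (1.21% of those tested) and 153 lower (0.673%). Their median log2 difference was 1.18 for the higher ones, with 1.12 for A and 1.20 for B, and -0.95 for the lower ones (-0.84 for A and -0.97 for B). Both low CO2 light arrays lay above all 4 others for 203 of the 275 and below all 4 others for 132 of the 153. The smallest adjusted p was 0.0176, and 4735 probe sets had an unadjusted p under 0.05. Of genes with a name, AT5G54870 (log2 difference 0.71) and AT1G62660 (0.69) were the last inside the threshold and AT1G26460 (-1.05) and AT3G06680 (-0.87) the first outside it. The calls by limma depended on how the variance was modelled and on each array: without the mean-variance trend there were 6 higher and 0 lower (4723 at unadjusted p). Leaving out low CO2 light A gave 26 and 2, low CO2 light B 18 and 0 (3296), low CO2 dark B 37 and 1, and leaving out any of the other 3 arrays gave 0 and 0 (3558 to 4414 at unadjusted p).

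Being called against the average does not place a gene outside each treatment. A stricter count asked for an adjusted p under 0.05 against each treatment alone in one direction, and 46 probe sets passed higher (0.202%) and 5 lower (0.022%). Against low CO2 dark alone 237 probe sets were called (1.04%), and against normal CO2 light alone 3321 (14.6%). Of the 275 higher probe sets, 181 were called against normal CO2 light and not against low CO2 dark, 48 the other way round and 46 against each. Of the 153 lower ones, 142 were called against normal CO2 light and not against low CO2 dark, 6 the other way round and 5 against each. The other treatments stood outside more often by the same count of arrays: normal CO2 light lay above all 4 others for 22.1% of probe sets and below them for 17.2%, and low CO2 dark above for 12.5% and below for 12.3%.

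**Figure D1:**
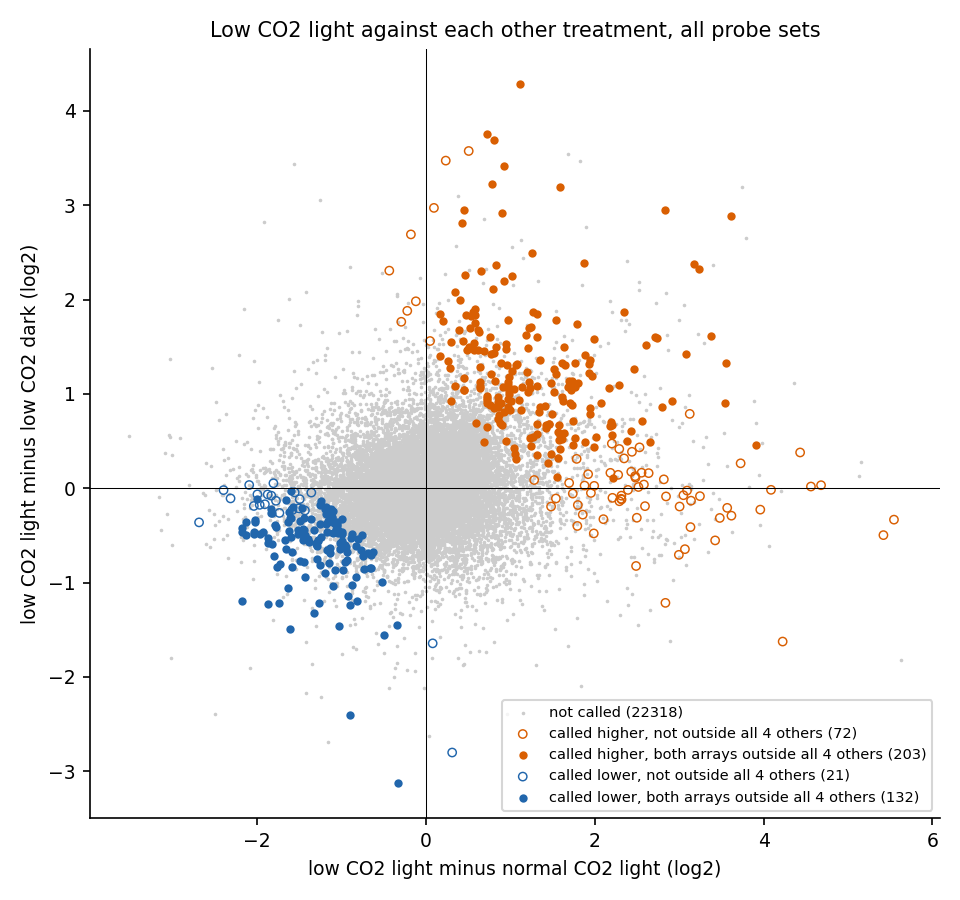
Difference of low CO2 light from normal CO2 light (x axis, log2) and from low CO2 dark (y axis, log2) for all 22746 probe sets, one point each. Filled orange points are the 203 called higher with both arrays above all 4 others, filled blue points the 132 called lower with both arrays below all 4 others, open points the other called probe sets and grey points those not called; many filled orange points lie high on both axes, while most blue points lie farther out along the normal CO2 light axis.

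Some measures of the arrays moved with the groups. The 3' to 5' ratio of the actin control was 2.63 and 2.84 in low CO2 light, 2.16 and 2.60 in normal CO2 light and 1.97 and 2.34 in low CO2 dark, so both low CO2 light arrays were the highest. That of ubiquitin was 1.44 and 1.38 in low CO2 light, 1.69 and 1.95 in normal CO2 light and 1.48 and 1.39 in low CO2 dark. The part of RNA quality in the results was not tested. Arrays of low CO2 light correlated across probe sets with r = 0.971 with each other, 0.912 to 0.944 with normal CO2 light and 0.957 to 0.968 with low CO2 dark. Leaf transcripts were present as labelled: LHCB4.1, an antenna protein of photosystem II, read 3894.9 to 4708.7 on all 6 arrays, and the root-hair expansin EXPA7 read 7.8 to 17.8. Fewer cells of a type and less RNA per cell cannot be told apart in such whole-rosette RNA.

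Among the 203 called probe sets that lay above all 4 others, the distance to the 2 other treatments varied. In 106 the smaller of the 2 differences was at least 0.5 times the larger, in 50 the distance was mostly to normal CO2 light, and in 47 mostly to low CO2 dark. The gap between the nearest low CO2 light array and the nearest other array had a median of 1.49-fold and a highest value of 4.84-fold, and was at least 2-fold in 23. These probe sets were bright, with a median highest group mean of 292, against 49.4 over all tested. A single gene name was given for 111 of them.

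The first pattern, a level well above both treatments, was widest in AT1G62510. Its intensity was 1374.2 and 1041 (replicates A and B) in low CO2 light, 196.2 and 132.7 in normal CO2 light and 209.2 and 105.4 in low CO2 dark. Both low CO2 light arrays were far above the others, and the other treatments overlapped with each other. The log2 difference from both was 2.89 ± 0.30 (SE, limma adjusted p = 0.0349), and AT1G62510 was called against each alone (2.83 against normal CO2 light, adjusted p = 0.00845, and 2.95 against low CO2 dark, adjusted p = 0.029). AT1G09500 had the largest log2 difference of the named genes called, 3.25 ± 0.50 (adjusted p = 0.0465). It read 551.7 and 150.2 in low CO2 light, 13.2 and 21.6 in normal CO2 light and 26.7 and 40.3 in low CO2 dark. Its 2 low CO2 light arrays differed widely: the log2 difference was 2.33 (adjusted p = 0.0639) without low CO2 light A and 4.16 (adjusted p = 0.0369) without low CO2 light B.

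SRX, the plastid sulfiredoxin that restores over-oxidised peroxiredoxins, belonged to this pattern. It read 609.4 and 595.1 in low CO2 light, 317.1 and 278.9 in normal CO2 light and 358.6 and 316 in low CO2 dark. The low CO2 light arrays were the highest and nearly equal, and the log2 difference from both was 0.91 ± 0.12 (limma adjusted p = 0.0391). Against low CO2 dark alone SRX was not called (0.825, adjusted p = 0.0543). SRX was the one gene called, against 1.11% of named genes called higher, among 8 measured members of a list of 25 peroxide and ascorbate redox enzymes, of which 0 others lay above or below all 4 arrays. The plastid ascorbate peroxidases did not share its pattern: SAPX read 114 and 105.1 in low CO2 light, 239.6 and 376.3 in normal CO2 light and 85.3 and 88.6 in low CO2 dark, and TAPX had a log2 difference of -0.09 ± 0.14.

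SCPL49, a serine carboxypeptidase-like protein, read 338 and 304.3 in low CO2 light, 168.6 and 183.3 in normal CO2 light and 178.7 and 165.5 in low CO2 dark. The other treatments were level with each other, and SCPL49 was called against each alone (log2 differences of 0.84 from normal CO2 light and 0.87 from low CO2 dark). MAP1B, a methionine aminopeptidase that trims the first residue of new proteins, was also called against each, with a log2 difference from both of 0.88 ± 0.14 (limma adjusted p = 0.0479). It read 149.4 and 130.1 in low CO2 light, 87.8 and 86.3 in normal CO2 light and 65.9 and 54.2 in low CO2 dark, 3 levels that did not overlap. Known only by locus, AT4G11570 read 1392.9 and 1146.9 in low CO2 light, 563 and 576 in normal CO2 light and 581.7 and 608.1 in low CO2 dark, and AT1G12250 and AT5G04830 were likewise near 2-fold above both (2.07-fold and 2.05-fold). In all, 23 of the 46 probe sets called higher against each had a single name, and those named here because of that count were chosen after their values were seen.

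Defence genes were among the transcripts above both treatments. CHI, a chitinase, read 252.5 and 156.8 in low CO2 light, 54 and 52.8 in normal CO2 light and 74.8 and 74.6 in low CO2 dark, a log2 difference of 1.55 ± 0.20 (limma adjusted p = 0.0397). THI2.2, a thionin, one of the small antimicrobial peptides of plants, read 115.1 and 139.8 in low CO2 light, 90.8 and 100.1 in normal CO2 light and 33.7 and 35.4 in low CO2 dark (1.03 ± 0.14, adjusted p = 0.0429). Both genes were highest in low CO2 light on each array, CHI clear of either treatment and THI2.2 closer to normal CO2 light. CHI was not called against low CO2 dark alone (1.33, adjusted p = 0.0597), nor THI2.2 against normal CO2 light alone (0.39, adjusted p = 0.184). These 2 were the members called among 7 measured of a list of 20 defence genes, whose median log2 difference was 0.66, against 0.009 over all 13355 named genes, of which 1.11% were called higher and 0.532% lower. The list's median ran over the alternatives from 0.47 without low CO2 light B to 1.17 without low CO2 light A. It was 0.49 with a pseudocount of 32 and 1.05 without low CO2 dark B. With all arrays kept, 0 of the list were called with a pseudocount of 32 and 0 without the mean-variance trend. CHI and THI2.2 had been seen among the called genes when that list was written, as had SRX for the redox list. A defensin pair showed a difference between replicates instead: PDF1.2 read 49.5 and 566.5 in low CO2 light, 56.5 and 356.5 in normal CO2 light and 12.2 and 373.6 in low CO2 dark, with replicate B high in every group.

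The second pattern was lowest in normal CO2 light, with low CO2 light above low CO2 dark. STZ, also named ZAT10, a zinc finger repressor of the response to abiotic stress, read 130.5 and 172.2 in low CO2 light, 18.6 and 16.9 in normal CO2 light and 91.5 and 119.6 in low CO2 dark. The 3 groups did not overlap, but low CO2 dark came close, and the log2 difference from both was 1.57 ± 0.18 (limma adjusted p = 0.0388) while that from low CO2 dark alone was 0.49 (adjusted p = 0.324). STZ was the one called gene among 5 measured of 22 photoprotection and high-light genes, against 1.11% of named genes called higher. The median log2 difference of that list was 0.16 (-0.06 without low CO2 light A). MTP11, a manganese transporter, read 726.9 and 933.7 in low CO2 light, 265.5 and 210.8 in normal CO2 light and 601.1 and 539.9 in low CO2 dark, a log2 difference of 1.15 ± 0.16 (adjusted p = 0.0428).

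The largest members of this second pattern carried locus names alone. AT5G43450 read 812.3 and 592.5 in low CO2 light, 76.8 and 74.1 in normal CO2 light and 259.1 and 251.3 in low CO2 dark. It shared the smallest adjusted p of the comparison, 0.0176, had a log2 difference of 2.25 ± 0.15 and was called against each treatment alone. AT1G05340 read 406.5 and 331.2 in low CO2 light, 16.1 and 19.4 in normal CO2 light and 257.4 and 275 in low CO2 dark, so low CO2 dark stood much nearer to low CO2 light. AT1G76600, AT3G22060, AT3G45730 and AT3G60420 lay between 1.92 and 2.50 on the log2 scale, each nearer to low CO2 dark than to normal CO2 light. AT3G13950 (2.11 ± 0.25, limma adjusted p = 0.0388) was called against each. It lay 2.35 above normal CO2 light and 1.87 above low CO2 dark, and so was well above both, as in the first pattern. ZCF37 (1.83), UGT71C4 (0.69), a glycosyltransferase, and RALFL32 (0.84), a secreted signalling peptide of the RALF family, were members of the second pattern with a symbol. RALFL32 differed from low CO2 dark by 0.12 alone (adjusted p = 0.742).

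The third pattern was lowest in low CO2 dark, with low CO2 light above normal CO2 light. ATSPS4F, a sucrose phosphate synthase, an enzyme of sucrose synthesis, read 383 and 512.3 in low CO2 light, 257.8 and 235.7 in normal CO2 light and 66.3 and 96.6 in low CO2 dark. The groups formed 3 separate levels with low CO2 light the highest, and the log2 difference from both was 1.60 ± 0.19 (limma adjusted p = 0.0388), of which 2.37 was the difference from low CO2 dark (adjusted p = 0.0172) and 0.83 that from normal CO2 light (adjusted p = 0.0555). In a list of 18 genes of sucrose metabolism and sugar transport, 3 were measured and 2 called higher, against 1.11% of named genes. The second was AT1G62660, just inside the threshold, at 249.9 and 285.5 in low CO2 light, 166.2 and 153.1 in normal CO2 light and 170.6 and 163.6 in low CO2 dark. The third was SWEET11, a sucrose exporter of leaf veins, with a log2 difference of -0.35 ± 0.25 (adjusted p = 0.497).

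COR15B, a cold-regulated protein of the chloroplast stroma, followed the same order, at 375.3 and 329.1 in low CO2 light, 221.3 and 129.1 in normal CO2 light and 87.7 and 52.9 in low CO2 dark. Its log2 difference from both was 1.63 ± 0.27 (limma adjusted p = 0.0484). COR15A did not keep this order in replicate A, where low CO2 dark was highest. It read 845.9 and 379.3 in low CO2 light, 807.7 and 345 in normal CO2 light and 1064.9 and 93.9 in low CO2 dark (0.45 ± 0.93, adjusted p = 0.838). AT1G70820 read 1334.2 and 922.2 in low CO2 light, 709.2 and 632.3 in normal CO2 light and 57.3 and 98.8 in low CO2 dark. Low CO2 dark was 3.75 log2 units from low CO2 light in AT1G70820, and normal CO2 light was 0.72 from it. AT4G16880 (2.25 ± 0.28, adjusted p = 0.0388) and AT5G42250 (2.17 ± 0.33, adjusted p = 0.0465) had the same order, and both read 1.7 to 16 on the low CO2 dark arrays. The probe set with the smallest unadjusted p in the comparison has no gene name in the annotation used. It read 1824.2 and 2413.3 in low CO2 light, 999.8 and 932.2 in normal CO2 light and 101.5 and 100.4 in low CO2 dark (2.70 ± 0.14, adjusted p = 0.0176).

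PIFI and NdhN, both of chloroplast cyclic electron flow, were called against the average of both treatments and against low CO2 dark, and neither was called against normal CO2 light. PIFI, an accessory protein of the chloroplast NADH dehydrogenase-like (NDH) complex, which returns electrons from stromal reductants to the plastoquinone pool, read 1634.2 and 1603.6 in low CO2 light, 1132.6 and 1230.6 in normal CO2 light and 755.2 and 675.7 in low CO2 dark (log2 difference 0.81 ± 0.12, limma adjusted p = 0.045). NdhN, a subunit of that complex, read 724.4 and 696.4 in low CO2 light, 680.2 and 588.4 in normal CO2 light and 293 and 238.3 in low CO2 dark, just inside the threshold (0.78 ± 0.13). The log2 difference from normal CO2 light alone was 0.45 for PIFI (adjusted p = 0.0783) and 0.17 for NdhN (adjusted p = 0.547). NdhL was also above all 4 others (0.45 ± 0.14, adjusted p = 0.142). Of 23 listed genes of the nuclear-encoded NDH complex and cyclic electron flow, 6 were measured, with 2 called higher, against 1.11% of named genes, 0 called lower and a median of 0.52 (0.33 without low CO2 light A). PIFI and NdhN had been seen among the called genes when that list was written, so its count is not independent of them.

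**Figure D2:**
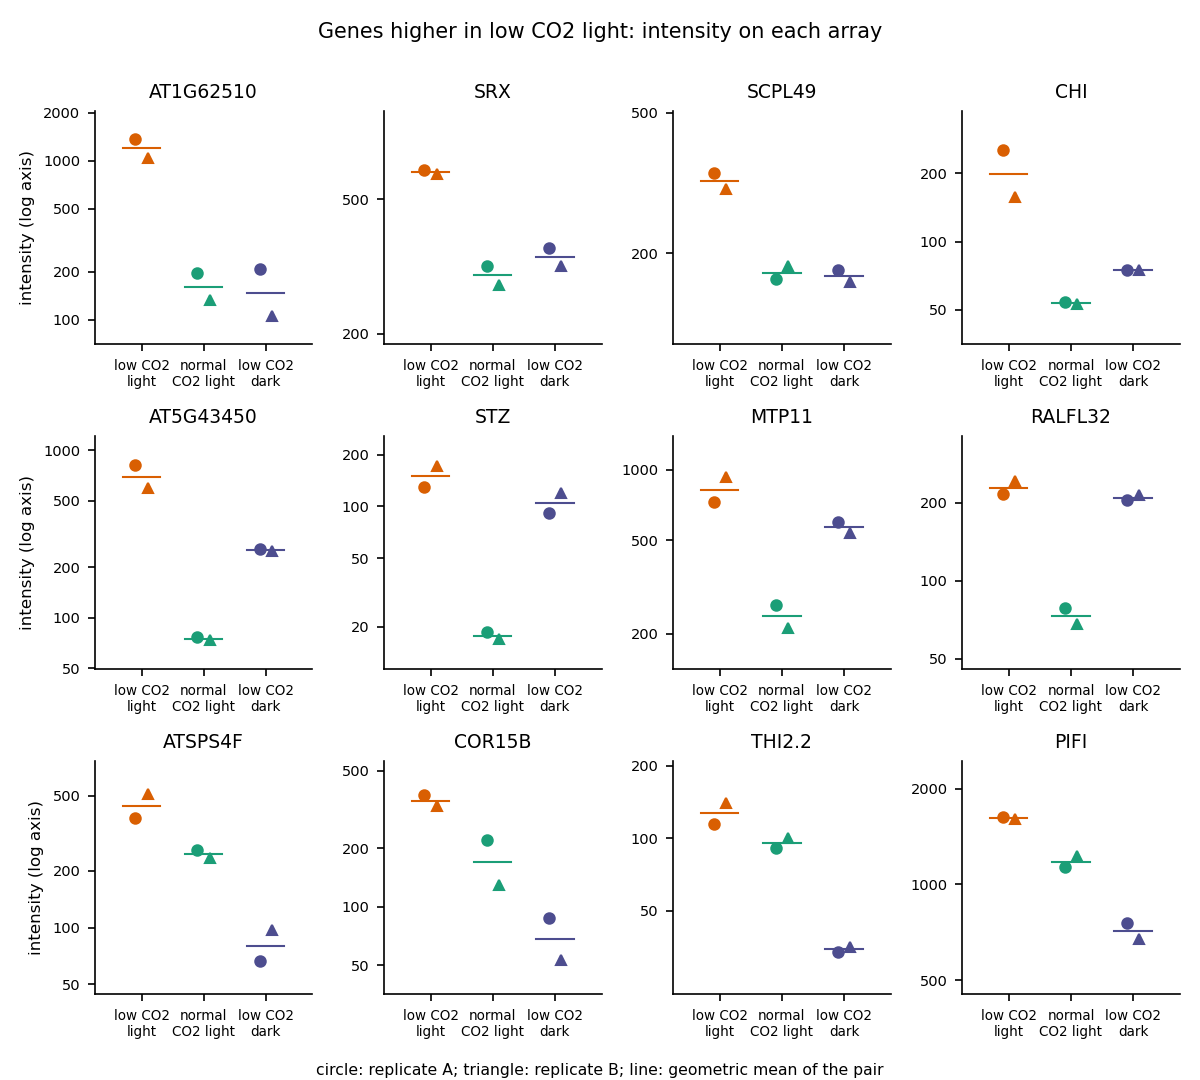
Intensity (log axis, which differs between panels) of 12 genes called higher in low CO2 light, on each array of low CO2 light (orange), normal CO2 light (green) and low CO2 dark (purple). Circles are replicate A, triangles replicate B and lines the geometric mean; both orange points lie above all 4 others in each panel, by a wide margin in AT1G62510 and a narrow one in RALFL32.

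Light signalling genes stood high without passing the test. GI (GIGANTEA), a protein of the circadian clock and of flowering control, read 126.4 and 186.9 in low CO2 light, 80.5 and 108.2 in normal CO2 light and 17.1 and 44.8 in low CO2 dark. HYH, a bZIP factor that acts with its relative HY5 in light responses, read 68.9 and 126.7 in low CO2 light, 48.1 and 35.6 in normal CO2 light and 63.9 and 44.1 in low CO2 dark. Both genes lay above all 4 other arrays, HYH by a small margin, with log2 differences of 1.43 ± 0.34 (limma adjusted p = 0.0833) and 0.90 ± 0.28 (adjusted p = 0.144). AT3G52740 lay above all 4 others as well (1.42, adjusted p = 0.0667), and AT3G44450 did not, since normal CO2 light was higher. Of 20 listed genes of light signalling and the clock, 4 were measured and 0 were called by limma in this comparison (4 at an unadjusted p under 0.05). AT3G52740 and AT3G44450 were called higher against low CO2 dark alone. Against normal CO2 light alone AT3G44450 was called lower (-1.26, limma adjusted p = 0.0174).

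Enzyme families of detoxification and secondary metabolism were drawn by words in gene symbols and synonyms, so members without such words were not counted. Of 24 cytochrome P450 genes, enzymes that oxidise a wide range of metabolites, 9 lay above all 4 others and 0 below, against 8.85% above and 8.84% below over named genes, and the median log2 difference was 0.43 (0.22 with a pseudocount of 32). A single one was called higher (4.17%, against 1.11% of named genes), CYP71B23 (1.31 ± 0.18, limma adjusted p = 0.0411). CYP71B23 read 273.9 and 213.1 in low CO2 light, 30.6 and 38.4 in normal CO2 light and 207.8 and 265.8 in low CO2 dark, and thus overlapped with low CO2 dark. CYP78A9 stood above both treatments without being called, at 137.5 and 127.6 in low CO2 light, 67.8 and 93.7 in normal CO2 light and 75.4 and 64.1 in low CO2 dark. Members of the CYP71B subfamily are close in sequence, and signal shared between their probe sets was not tested.

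Of 43 UDP-glycosyltransferases, which attach sugars to hormones and phenolic compounds, 6 lay above all 4 others (14%, against 8.85% of named genes). Below them lay 1 (2.33%, against 8.84%). By limma 2 were called higher (4.65%, against 1.11%) and 1 lower (2.33%, against 0.532%), and the median was 0.05. UGT71B6, which glucosylates abscisic acid, was called higher at low intensity, with 27.7 and 13.5 in low CO2 light, 1.6 and 0.2 in normal CO2 light and 4.4 and 5.5 in low CO2 dark (1.43 ± 0.23, limma adjusted p = 0.0483). UGT73C1 read 97.7 and 9.3 in low CO2 light and under 1 on every other array. The size for UGT73C1 rested on low CO2 light A, with a log2 difference of 2.39 ± 0.66 (adjusted p = 0.114), 1.06 without that array and 3.72 without low CO2 light B. Among 13 glutathione S-transferases, which join glutathione to toxic compounds, 3 lay above all 4 others (23.1%, against 8.85% of named genes) and 0 below. The one called higher (7.69%, against 1.11%) was GSTU16 (0.71, adjusted p = 0.0456). GSTU16 was level with low CO2 dark, at 410.2 and 369.2 in low CO2 light, 126.2 and 132.3 in normal CO2 light and 412.2 and 428.4 in low CO2 dark. CCR2, a cinnamoyl-CoA reductase of lignin synthesis, was just inside the threshold at 20.1 and 24.7 in low CO2 light, 7.6 and 7.2 in normal CO2 light and 9.2 and 7.5 in low CO2 dark.

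The rule that ranked genes by the smaller of their 2 differences also named genes that did not pass the test. AT4G20860 read 223.8 and 315.3 in low CO2 light, 27.1 and 24.1 in normal CO2 light and 30.9 and 124 in low CO2 dark (log2 difference 2.50 ± 0.47, limma adjusted p = 0.0561). AT3G28270, AT2G15020 and AT1G57630 had log2 differences of 2.65, 2.61 and 2.34 with adjusted p of 0.0997, 0.099 and 0.0748. In each of the 3 genes the low CO2 light arrays were the highest, and replicates of at least one other treatment differed several-fold.

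The 132 called probe sets below all 4 others were shaped differently. In 79 the distance was mostly to normal CO2 light, in 4 mostly to low CO2 dark, and in 49 the smaller difference was at least 0.5 times the larger. Gaps were narrow, with a median of 1.31-fold, a highest value of 2.14-fold and 2 probe sets at 2-fold or more. Just 9 of the 132, against 59 of the 203 higher ones, were at least 1 log2 unit from each treatment.

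AT5G12050 had the largest log2 difference among named genes called lower, -1.65 ± 0.16 (limma adjusted p = 0.0347), and was called against each treatment. It read 57.6 and 42.4 in low CO2 light, 110.3 and 89.2 in normal CO2 light and 281.1 and 304 in low CO2 dark, 3 levels with darkness the highest. AT5G60840, at 37.3 and 37.6 in low CO2 light, 81.7 and 73.2 in normal CO2 light and 97 and 86 in low CO2 dark, was also called against each. The third named gene of this kind, AT4G23760, read 1.1 and 0.7 in low CO2 light and 6 to 12.2 elsewhere, near the pseudocount of 7.3, so its size depends on that value. UGT72E1, which glucosylates precursors of lignin, read 67.2 and 81.7 in low CO2 light, 92 and 100.6 in normal CO2 light and 202.6 and 228.2 in low CO2 dark (-0.90 ± 0.14, adjusted p = 0.0465).

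Several genes with a symbol fell to a similar degree against both treatments. MAB1, a subunit of the mitochondrial pyruvate dehydrogenase, which feeds pyruvate into the citric acid cycle, read 292 and 258.5 in low CO2 light, 438.5 and 557.1 in normal CO2 light and 530.4 and 538 in low CO2 dark (log2 difference -0.89 ± 0.14, limma adjusted p = 0.0468). RAB6A, a small GTPase of Golgi traffic, read 129.9 and 117.8 in low CO2 light, 200.7 and 207.5 in normal CO2 light and 213.1 and 193.1 in low CO2 dark (-0.69 ± 0.12, adjusted p = 0.0495). In both genes the other treatments overlapped with each other and lay well above low CO2 light. BIM1, a helix-loop-helix partner of the brassinosteroid factor BES1, read 57.3 and 45 in low CO2 light, 89.8 and 110.7 in normal CO2 light and 106 and 115.5 in low CO2 dark, just inside the threshold at -0.95 ± 0.16. BZIP61 was at 1.2 and 1.8 in low CO2 light, 17.7 and 21.5 in normal CO2 light and 26.2 and 11 in low CO2 dark, also just inside, and its size depends on the pseudocount (range over the alternatives -2.96 to -0.60). MAB1, RAB6A, BIM1 and BZIP61 were each called against normal CO2 light alone. None of them was called against low CO2 dark alone (limma adjusted p = 0.0566 to 0.0795).

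Other lowered genes lay farther below normal CO2 light than below low CO2 dark. The plastid NAD-dependent malate dehydrogenase MDH, which exchanges reducing power between malate and NADH, read 249.4 and 224.8 in low CO2 light, 544 and 548.6 in normal CO2 light and 291.3 and 284.6 in low CO2 dark (-0.73 ± 0.11, limma adjusted p = 0.045). PPR336, of the pentatricopeptide repeat family of organelle RNA-binding proteins, read 68.4 and 62.9 in low CO2 light, 221 and 225.1 in normal CO2 light and 70.9 and 73.7 in low CO2 dark. Low CO2 dark almost reached the low CO2 light level of PPR336, with a log2 difference of -0.13 (adjusted p = 0.725). AT5G41670, AT4G12600, AT5G08570, AT3G52500, AT5G50420 and AT3G51870, known by locus alone, lay between -1.25 and -1.10. Their distance to low CO2 dark varied, with log2 differences from it of -0.35 for AT5G41670 and -0.79 for AT5G50420.

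Genes of the ribosome and of ribosome assembly stood out in number, with 16 and 5 of the 71 named genes called lower. Of 219 listed loci of cytosolic ribosomal proteins, 125 were measured, and 12.8% of them were called lower, against 0.532% of named genes, and 0 higher by limma (118 were below 0 and 82 had an unadjusted p under 0.05). Their median log2 difference was -0.53, against 0.009 over named genes, with -0.50 from the A arrays and -0.54 from the B arrays. With all arrays kept, 0 of these genes were called lower without the mean-variance trend, 2 with a pseudocount of 32 and 49 without probe sets under a mean intensity of 30. AT3G07110, the lowest of them, read 490.3 and 410.2 in low CO2 light, 1197.7 and 1551 in normal CO2 light and 803.6 and 802.5 in low CO2 dark. These were 3 separate levels with low CO2 light lowest (-1.21 ± 0.15, adjusted p = 0.0388). AT3G57490 read 53.9 and 49.7 in low CO2 light, 197.8 and 274.6 in normal CO2 light and 71.8 and 65.2 in low CO2 dark, and AT2G32060 had a log2 difference of -1.04 (adjusted p = 0.0487).

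Most of the ribosomal difference lay against normal CO2 light. The median of the 125 genes was -0.85 against normal CO2 light, with 70 called lower, where 14.6% of all probe sets were called in either direction. Against low CO2 dark it was -0.19, with 0 called by limma (13 at an unadjusted p under 0.05), where 1.04% of all probe sets were called. All the same, 54 of the 125 (43.2%) lay below all 4 other arrays and 0 above, against 8.84% and 8.85% of named genes. Many ribosomal protein genes have near-identical copies, so probe sets may share signal, and 3 of these genes had been seen among the called ones when the list was written.

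Ribosome assembly factors, the proteins that build and export new ribosomal subunits from the nucleolus, had a more negative median. All 18 measured of 32 listed had a log2 difference below 0, with a median of -0.92 (-0.62 from the A arrays and -1.15 from the B arrays). By limma 5 were called lower (27.8%, against 0.532% of named genes). With all arrays kept, this count was 0 without the mean-variance trend, 2 with a pseudocount of 32 and 13 without probe sets under a mean intensity of 30. AT5G14520, named PESCADILLO in the gene table, a factor of large-subunit assembly, read 77.6 and 73.8 in low CO2 light, 246.6 and 293.5 in normal CO2 light and 136.1 and 139.5 in low CO2 dark (-1.27 ± 0.12, limma adjusted p = 0.0347). AT3G23620 read 57.6 and 49.1 in low CO2 light, 205.5 and 281 in normal CO2 light and 77.9 and 74.1 in low CO2 dark (-1.25 ± 0.17, adjusted p = 0.0411). AT1G06720 read 17.5 and 15.7 in low CO2 light, 80.7 and 87 in normal CO2 light and 25 and 26.4 in low CO2 dark (-1.20 ± 0.16, adjusted p = 0.0411). In all 3 genes low CO2 light was lowest on both arrays and normal CO2 light highest. Against low CO2 dark alone the list's median was -0.23 and 0 were called by limma (5 at an unadjusted p under 0.05). These 3 genes had been seen before the list was written.

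**Figure D3:**
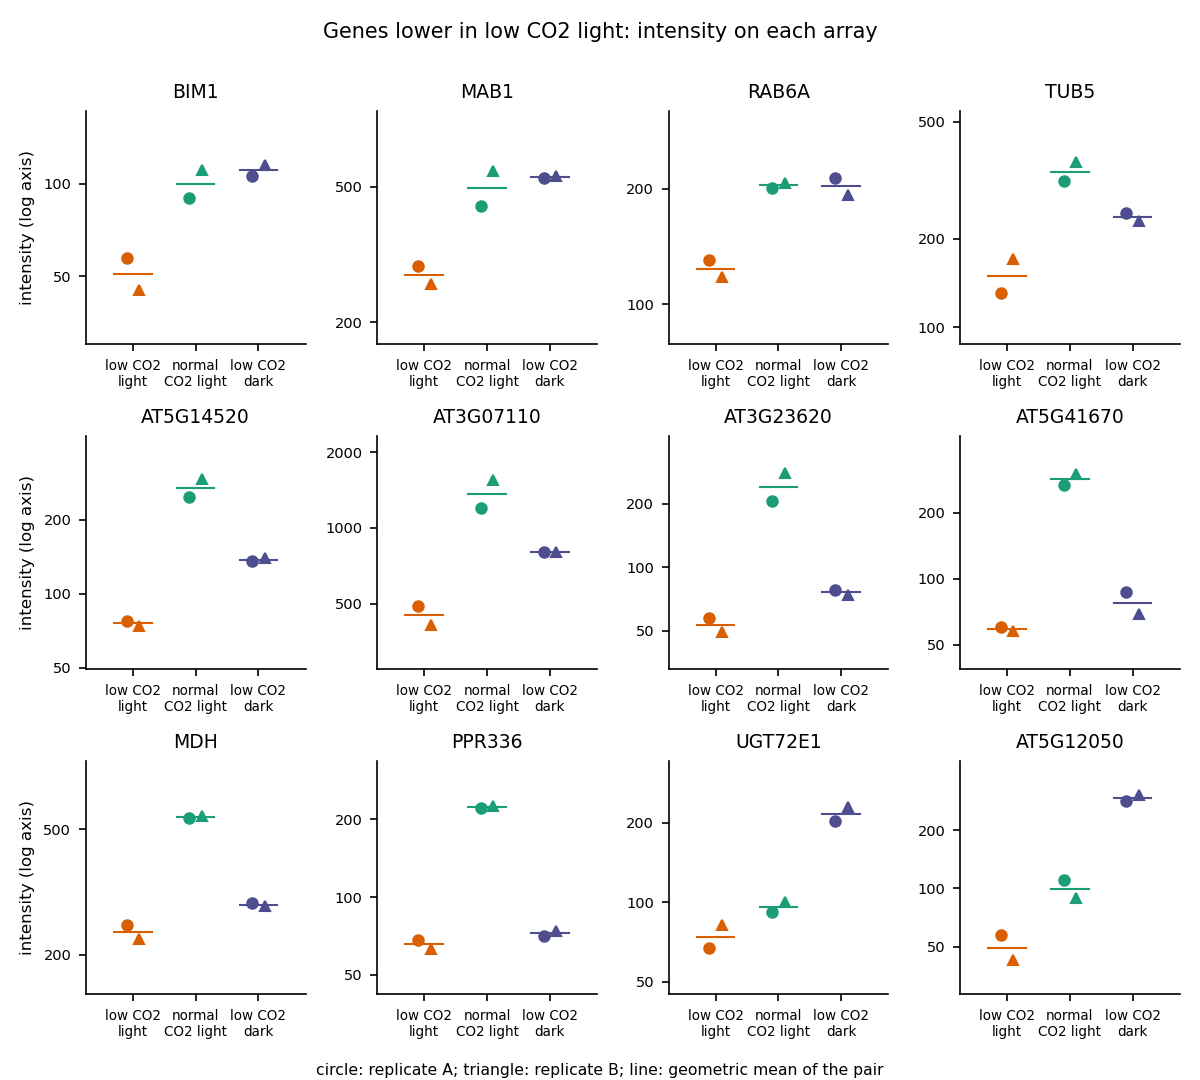
Intensity (log axis, which differs between panels) of 12 genes called lower in low CO2 light, on each array of low CO2 light (orange), normal CO2 light (green) and low CO2 dark (purple), with replicate A as circles, replicate B as triangles and the geometric mean as a line. Both orange points lie below all 4 others in each panel; the other treatments are level in BIM1, MAB1 and RAB6A, normal CO2 light is highest in AT5G14520, AT3G07110, AT3G23620, AT5G41670, MDH and PPR336, and low CO2 dark is highest in UGT72E1 and AT5G12050.

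Tubulins, the subunits of microtubules, had mostly negative differences. Of 7 measured of 15 listed, 4 lay below all 4 others, against 8.84% of named genes, and 6 had a log2 difference below 0, with a median of -0.89. TUB5, a beta tubulin, was the one called (0.532% of named genes were called lower), at 131.3 and 171.1 in low CO2 light, 314 and 364.1 in normal CO2 light and 244 and 229.5 in low CO2 dark (-0.88 ± 0.15, limma adjusted p = 0.0484). TUB1 read 39.8 and 28.9 in low CO2 light, 97.8 and 93.9 in normal CO2 light and 90.7 and 59.3 in low CO2 dark (-1.14, adjusted p = 0.0548), and TUB6 and TUA6 also lay below every other array. The exception was TUA1, with a log2 difference of 0.33 ± 0.16. Against normal CO2 light alone the list's median was -1.14, with 5 called lower and 1 higher, where 14.6% of all probe sets were called. Against low CO2 dark alone it was -0.63, with 0 called by limma (3 at an unadjusted p under 0.05). With all arrays kept, 0 tubulins were called lower against both with a pseudocount of 32, with quantile normalization or without the mean-variance trend. TUB1 and TUB5 had been seen before the list was written.

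Genes of cell wall loosening and xyloglucan were divided in direction. Of 28 measured expansins and xyloglucan endotransglucosylases, 14 had a log2 difference above 0 and 14 below, with a median of 0.02 and 0 calls in either direction by limma (6 at an unadjusted p under 0.05). The median was -0.47 where probe sets under a mean intensity of 30 were left out. EXPA16, an expansin, a protein that loosens cell walls, read 19.2 and 22.8 in low CO2 light, 89 and 34.5 in normal CO2 light and 234.9 and 130.2 in low CO2 dark (-1.93 ± 0.38, limma adjusted p = 0.0619). EXPA4 read 60.3 and 71.7 in low CO2 light, 139.4 and 113.7 in normal CO2 light and 105.7 and 106.4 in low CO2 dark (-0.75 ± 0.15, adjusted p = 0.0594). Both expansins were lowest in low CO2 light on each array. CSLC04, a synthase of the xyloglucan backbone, read 122.8 and 63.1 in low CO2 light, 210.3 and 175.8 in normal CO2 light and 265.8 and 127 in low CO2 dark (-1.03, adjusted p = 0.172). DRT100 (-2.00) and AT1G04040 (-2.42), named by the rule on the smaller difference, were not called (adjusted p = 0.0917 and 0.0866). In both, low CO2 light B was several-fold below low CO2 light A.

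**Figure D4:**
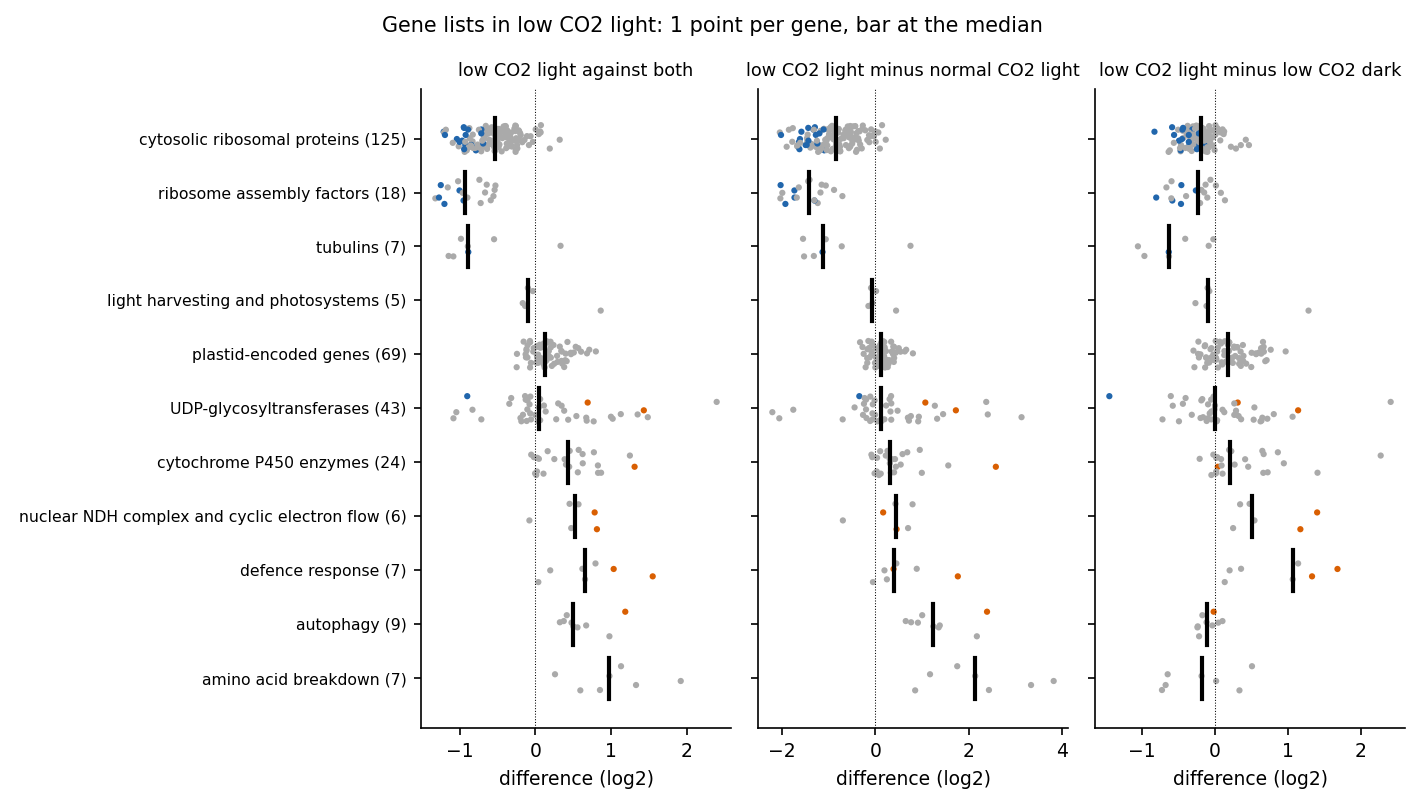
Log2 difference of low CO2 light from the average of both treatments (left), from normal CO2 light (middle) and from low CO2 dark (right) for the measured genes of 11 lists, with the number of genes in brackets, 1 point per gene and a black bar at the median. Orange and blue points are genes called higher or lower against both; the ribosomal lists lie below 0 in the left and middle panels and near 0 on the right, while autophagy and amino acid breakdown lie above 0 in the left and middle panels and near 0 on the right.

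Autophagy and amino acid breakdown genes lay above normal CO2 light and near low CO2 dark. ATG8 proteins, which coat the membranes that engulf cell contents in autophagy, made up the 9 measured autophagy genes. All 9 were above 0 in the log2 difference from both, with a median of 0.50, but the median was 1.24 against normal CO2 light, with 8 called where 14.6% of all probe sets were, and -0.12 against low CO2 dark, with 0 called by limma and 0 at an unadjusted p under 0.05. ATG8E, the one called against both, read 926.7 and 893.3 in low CO2 light, 187.6 and 149.3 in normal CO2 light and 793.1 and 1070.4 in low CO2 dark, where the last overlapped with low CO2 light. Amino acid breakdown gave the same picture over 7 genes, with medians of 0.98 against both (0.69 from the A arrays and 1.35 from the B arrays), 2.14 against normal CO2 light and -0.18 against low CO2 dark, and with 0 called against both by limma (4 at an unadjusted p under 0.05). The median against both was 1.49 without low CO2 light A and 0.58 without low CO2 light B. D2HGDH, which oxidises D-2-hydroxyglutarate, was the one of them above all 4 others, at 131.4 and 123.1 in low CO2 light, 69.1 and 65.5 in normal CO2 light and 96.3 and 102.2 in low CO2 dark (0.59 ± 0.12, adjusted p = 0.0656). The leucine breakdown enzyme IVD was level with darkness, with a log2 difference of 0.02 from it.

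The lists of light harvesting, the Calvin-Benson cycle, chlorophyll synthesis, photorespiration and plastid-encoded genes held no gene called against both treatments. Of 5 genes of light harvesting and the photosystems 0 were called by limma (1 at an unadjusted p under 0.05), 4 had a log2 difference below 0, and the median was -0.10. One lay above and 1 below all 4 others, against 8.85% and 8.84% of named genes. LHCB4.2, an antenna protein, was the one below, at 3398.9 and 3498 in low CO2 light, 3575.3 and 3636.7 in normal CO2 light and 4169.5 and 4136.3 in low CO2 dark (-0.17 ± 0.14, adjusted p = 0.556). LHCB4.3, of the same antenna family, was above all 4 others, at 740.7 and 1085.5 in low CO2 light, 612.1 and 708.1 in normal CO2 light and 352.2 and 376.2 in low CO2 dark (0.86 ± 0.18, adjusted p = 0.0656). Of 5 Calvin-Benson cycle genes 0 were called by limma (0 at an unadjusted p under 0.05) and 0 lay outside, with a median of 0.12. Chlorophyll synthesis had 4 measured genes, 0 of them called by limma (1 at an unadjusted p under 0.05), all below 0 with a median of -0.31. Of these, 2 lay below all 4 others, AT1G74470 (-0.30 ± 0.13, adjusted p = 0.276) and CHLM (-0.31 ± 0.13, adjusted p = 0.247). CHLM, a methyltransferase of that pathway, read 1297.2 and 1496.6 in low CO2 light, 1631.1 and 1772.6 in normal CO2 light and 1713.7 and 1797.7 in low CO2 dark. Photorespiration, the salvage of the oxygenated product of Rubisco, had 4 measured genes, 0 calls by limma (2 at an unadjusted p under 0.05) and a median of 0.30. The one above all 4 others was AT1G80380, at 910.3 and 1201.6 in low CO2 light, 815.4 and 841.4 in normal CO2 light and 679.9 and 814.1 in low CO2 dark (0.41 ± 0.16, adjusted p = 0.209). LrgB, the plastid transporter of glycolate and glycerate, had a log2 difference of 0.47 ± 0.13 (adjusted p = 0.111). Of 69 plastid-encoded genes 8 lay above all 4 others (11.6%, against 8.85% of named genes) and 0 below (against 8.84%). By limma 0 of the 69 were called (6 at an unadjusted p under 0.05). Their median was 0.13, with -0.07 from the A arrays and 0.34 from the B arrays, 0.33 without low CO2 light A and -0.08 without low CO2 light B.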

How the data were processed

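The study measured total RNA of pgm rosettes on 6 single-colour Affymetrix arrays, labelled with biotin per the labels' protocols. The authors deposited linear intensity values, which came from MAS5 according to the submitters' processing notes. No source used here states its version or scaling target. With 2% trimmed from each end, every array averaged 100.01, so the deposited values had been scaled to each other and no normalization was added. Of 22810 probe sets, 64 controls were left out. In the platform annotation 13513 probe sets had 1 symbol, 503 had several and 8730 had none. Entrez IDs tied 13436 of the first kind to the TAIR10.1 gene table. That table was used for names alone, and probe sets with several symbols were not named.

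The pseudocount of 7.3 is the 20th percentile of all values, so differences of dim probe sets on the log2(intensity + 7.3) scale are understated. The fit, made in R 4.3.3 with limma 3.58.1, had 1 mean for each of 3 groups over the 6 arrays and a mean-variance trend in eBayes, leaving 3 residual and giving 3.27 prior degrees of freedom. Benjamini-Hochberg adjustment ran over 22746 probe sets for each contrast. Precision is limited by having 2 arrays a group. The script was tested on simulated data.

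Per direction, the genes named were the 12 with the largest difference among those called, lying outside all 4 other arrays, carrying 1 name and reaching a group mean of 50, then the 8 with the largest smaller difference, and up to 3 called members (or the 2 with the smallest p) of each gene list. Genes with a symbol among those called, and those called against each treatment, were added after their values were seen. Gene lists numbered 44, of which 7 were added after the values had been seen and 11 had no measured gene. Each gene was represented by its brightest probe set. The members and lists were chosen with earlier results of these data known. The letters A and B were not treated as pairs: deviations of same-letter arrays from their group means correlated with 0.015 for low CO2 light with normal CO2 light, 0.307 for low CO2 light with low CO2 dark and 0.159 for normal CO2 light with low CO2 dark, although the bioC spike-in read 66.3 to 73.8 on arrays A and 116.2 to 157.3 on arrays B.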

Additional observations from a re-analysis of the deposited data

How the results depend on the processing

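The main counts were 275 higher and 153 lower against both treatments, 46 and 5 called against each, and 2064 above and 2099 below all 4 others. With a pseudocount of 1 the lower calls were 261, and 11 against each. With a pseudocount of 32 they were 85 higher, 24 lower, and 2 lower against each. Shifting the arrays to a common median gave 73 higher against each. Keeping probe sets with a mean intensity of 30 or more gave 673 higher, 631 lower, 125 and 35 against each, and 1109 above all 4 others. Without the mean-variance trend limma called 6 and 0 (4723 at an unadjusted p under 0.05), with 17 and 3 against each. Quantile normalization moved no count by over 1.5 times. A model with the replicate letter as a replicate block called 505 higher and 318 lower, with 100 and 18 against each. Where an array is left out, the counts above and below all others cannot fall, so their rise was fixed in advance. Leaving out 1 array at a time gave 0 to 37 higher (3296 to 4504 at an unadjusted p under 0.05), 0 to 2 lower, 0 to 30 and 0 to 0 against each, and 2329 to 5337 above and 2432 to 4258 below all others.

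Over 124 named genes and 13 alternatives, 980 of 1599 values kept their direction and side of the threshold, 576 kept the direction and were no longer called, and 40 became called. The 77 genes called kept their direction throughout, but in most of them both low CO2 light arrays lay outside all the other arrays. For those genes, leaving out an array or changing the pseudocount or the variance model cannot reverse the direction. Their kept direction under these alternatives therefore follows from how they were chosen and does not test it. Each of the 77 genes was called in 1 to 10 of the alternatives. The 3 reversed values were of genes not called: AT3G02480 (-0.05 to 2.06 over the arrays left out), AT5G47390 (-0.065 to 0.50) and MYBC1 (-0.42 to 0.10). The median of the cytosolic ribosomal proteins ran from -0.62 to -0.43 over the alternatives and that of the ribosome assembly factors from -1.04 to -0.66. The causes of these movements were not tested. With 2 arrays a group, dim probe sets near the pseudocount are the least certain.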

Other observations

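The lists of bZIP, WRKY and basic helix-loop-helix transcription factors, drawn by words in gene symbols and synonyms, had 1 call between them. Of 22 bZIP transcription factors, 5 lay below (22.7%, against 8.84% of named genes) and 2 above all 4 other arrays (9.09%, against 8.85%). Their median log2 difference was -0.05 (0.27 without probe sets under a mean intensity of 30), and BZIP61 was the one called. Of 7 WRKY factors 0 were called by limma (1 at an unadjusted p under 0.05). WRKY6, a factor of senescence and defence, read 51.7 and 65.5 in low CO2 light, 11.5 and 8.2 in normal CO2 light and 31.1 and 54.5 in low CO2 dark (1.18 ± 0.25, limma adjusted p = 0.0694). Its low CO2 dark arrays overlapped with low CO2 light. Of 7 listed basic helix-loop-helix factors 0 were called (1 at an unadjusted p under 0.05) and 2 lay above all 4 others (28.6%, against 8.85% of named genes). BIM1, called lower, was not among those 7.

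Sulfate assimilation had 3 measured genes and 0 calls by limma (2 at an unadjusted p under 0.05). SIR, the sulfite reductase that makes sulfide, lay below all 4 others, at 340.2 and 200.9 in low CO2 light, 648 and 709.3 in normal CO2 light and 415 and 467.5 in low CO2 dark (-1.04 ± 0.21, limma adjusted p = 0.0652). Flavonoid and anthocyanin synthesis, with 5 measured genes and a median of -0.79 (-0.37 without low CO2 light B and -0.49 with a pseudocount of 32), had 0 calls (3 at an unadjusted p under 0.05), and its median was -1.76 against normal CO2 light and 0.17 against low CO2 dark. UF3GT, which adds a sugar in anthocyanin synthesis, read 23.6 and 7.2 in low CO2 light, 121.8 and 67.1 in normal CO2 light and 13.9 and 10.4 in low CO2 dark. The genes of water deficit and abscisic acid numbered 3, with 0 calls (0 at an unadjusted p under 0.05) and a median of 0.63. COR47, a dehydrin, read 910.4 and 765.5 in low CO2 light, 289.4 and 174.5 in normal CO2 light and 959.5 and 1681.3 in low CO2 dark, and so was highest in darkness. AKINBETA1, a regulatory subunit of the SnRK1 energy-sensing kinase, read 620.8 and 1236.6 in low CO2 light, 87 and 87.1 in normal CO2 light and 985 and 1318.1 in low CO2 dark (1.43 ± 0.28, limma adjusted p = 0.0608).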
